A study of Mus musculus with 12 samples.

Results

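The difference between the knockout effects in the Sertoli and germ fractions of the mouse testis was examined in mice labelled as lacking TAp73. The quantity is the interaction of fraction and genotype, that is, the knockout minus control difference in the Sertoli fraction minus the same difference in the germ fraction, on the log2 scale. It equals the gap between the Sertoli and germ fractions of knockout mice minus the gap of control mice. A negative interaction means that the knockouts were higher, relative to controls, in the germ fraction than in the Sertoli fraction. All 12 arrays of the series entered, 3 in each of 4 groups. Of 39429 probes on the array, 29387 met the rule that a probe be well above background on all 3 arrays of both genotypes in at least 1 fraction. They gave 24131 genes, each measured by its brightest probe, of 32496 genes on the array. Of these, 17868 met the rule in both fractions, 4970 in the germ fraction alone and 1293 in the Sertoli fraction alone.

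RNA of the mouse testis was measured after germ and Sertoli cells had been separated, with 1 array for each fraction of each of 6 male C57BL/6J mice. Knockout mouse 120 was 4 months old, and knockout mice 86 and 72 were 8 months old. The source names call mice 99, 73 and 74 wildtype. Mouse 99 was 5 months old and titled WT, and mice 73 and 74 were 8 months old but titled het. How the gene was disrupted is not given in the sources used here. Each of 3 array slides carried the 4 arrays of a knockout mouse and a control mouse, namely 120 with 99, 86 with 73 and 72 with 74, so each slide gives an interaction value of its own. The 75th percentile of the signal, to which levels are relative, ran from 1355 to 5350 over the arrays, and the lowest was that of the Sertoli array of control mouse 74.

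TAp73 is the full-length, transactivating form of the p53 family protein encoded by Trp73. The family binds DNA as tetramers and switches on genes of cell cycle arrest, apoptosis, adhesion and multiciliation. In the seminiferous tubule, Sertoli cells hold germ cells through specialised adherens junctions, and peptidases and their inhibitors remodel these contacts as germ cells move towards the lumen. Contrasting the fractions asks whether loss of the gene shifted RNA levels in 1 compartment more than in the other.

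The fractions were checked against markers in control mice. All 26 spermatocyte markers had less signal in the Sertoli fraction, with a median Sertoli minus germ gap of -9.04. Of 21 measured Sertoli markers, 13 were higher in the Sertoli fraction and 8 were lower, with a median gap of 0.45. Inhbb, a subunit of inhibin B, had a gap of 3.39, and Sox9, the Sertoli cell fate factor, a gap of 1.43. Rhox5, an androgen-induced homeobox gene of Sertoli cells, had a gap of -5.28. Fshr, the receptor for follicle-stimulating hormone and a defining Sertoli marker, was not well above background on any of the 6 Sertoli arrays and was well above it on all 6 germ arrays. All 10 peritubular myoid markers and all 10 fibroblast markers were higher in the Sertoli fraction, with median gaps of 5.48 and 6.71. The name Sertoli fraction therefore stands for the label. In such bulk samples, fewer cells of a type and less RNA per cell cannot be told apart.

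The gap of the targeted gene did not separate the genotypes. The Trp73 probe that met the rule had germ levels of -1.91, -2.79 and -2.35 in knockout mice 120, 86 and 72 and of -4.28, -3.10 and -2.68 in control mice 99, 73 and 74. Its Sertoli levels were -2.91, -2.82 and -2.72 in knockouts and -3.56, -4.01 and -2.13 in controls. In both fractions the knockout arrays had signal within or above the range of the controls. The knockouts had Sertoli minus germ gaps of -1.004, -0.03 and -0.37. In controls the gaps were 0.71, -0.91 and 0.55, which overlap those of the knockouts. Its interaction was -0.59 ± 0.70 (SE; limma with Benjamini-Hochberg adjustment, adjusted p 0.999). The probe was well above background on all 12 arrays, and which part of the gene it reads relative to the deletion is not known, so knockout and control stand for the labels. The other Trp73 probes, which did not meet the rule, gave 0.44 and -0.92. At the former every knockout array lay above every control array of its fraction, with control mouse 99 at -9.42 in Sertoli and -9.40 in germ. At the latter the genotypes overlapped in both fractions. Trp63 had an interaction of -0.43 ± 0.50 at its brightest probe and 0.24 at the other, so its probes disagree in sign. Trp53 had -0.41 ± 2.39, with gaps from -1.26 to 8.83 among the controls alone.

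Tas1r1 and Mpzl2 were the genes that passed the test of a different knockout effect in the fractions, in a fit that did not pair the fractions of a mouse. They are 2 of 24131 genes tested, or 0.00829%. In both, the knockout mice lacked most of the gap between fractions that control mice had. Tas1r1, a subunit of the amino acid taste receptor whose RNA is also found in germ cells, was called higher (0.00414% of genes). Mpzl2, an immunoglobulin-type adhesion protein of epithelia, was called lower (0.00414% of genes). The promoter of Tas1r1 is shown because it is the one of this pair held by the RefSeq table used here. It spans chr4:152038441-152038740 on the minus strand of GRCm38.p6, from 250 bases before to 50 bases after the gene's start, and it holds none of the motifs described below.
Tas1r1: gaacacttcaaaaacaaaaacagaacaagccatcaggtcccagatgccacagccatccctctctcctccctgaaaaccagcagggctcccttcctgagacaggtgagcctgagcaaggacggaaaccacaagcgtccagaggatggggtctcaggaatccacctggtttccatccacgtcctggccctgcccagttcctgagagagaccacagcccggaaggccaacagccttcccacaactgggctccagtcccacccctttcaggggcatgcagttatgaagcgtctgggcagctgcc

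The level of Tas1r1 in the germ fraction of control mice 99, 73 and 74 was 0.31, -0.29 and -0.75. In the germ fraction of knockout mice 120, 86 and 72 it was -5.82, -5.63 and -5.12. The knockout germ arrays lay far below the control germ arrays and close to the Sertoli arrays. In the Sertoli fraction the level was -5.95, -6.05 and -4.76 in controls and -6.20, -5.91 and -5.88 in knockouts. The Sertoli arrays of the genotypes overlapped, and mouse 74 was the highest of them. The gap between fractions was -6.26, -5.75 and -4.01 in the controls and -0.38, -0.27 and -0.76 in the knockouts, a mean of -5.34 ± 1.18 against -0.47 ± 0.26 (SD, n = 3). The interaction was 4.87 ± 0.52 (SE; limma with Benjamini-Hochberg adjustment, adjusted p 0.0221), composed of a germ effect of -5.28 ± 0.37 and a Sertoli effect of -0.41 ± 0.37. Within the slides it was 5.88, 5.48 and 3.25.

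Mpzl2 ran the other way. Its germ level was -5.86, -5.16 and -5.83 in controls 99, 73 and 74 and -2.65, -2.26 and -2.20 in knockouts 120, 86 and 72. Its Sertoli level was -2.02, -2.08 and -2.43 in controls and -2.49, -2.15 and -2.03 in knockouts. Control germ arrays stood alone at the bottom, and 2 of the 3 knockout germ arrays lay within the range of the Sertoli arrays, with mouse 120 just below it. The gap was 3.84, 3.08 and 3.40 in controls and 0.16, 0.11 and 0.17 in knockouts, a mean of 3.44 ± 0.38 against 0.15 ± 0.03 (SD, n = 3). The interaction was -3.29 ± 0.34 (SE; limma with Benjamini-Hochberg adjustment, adjusted p 0.0221), with a germ effect of 3.25 ± 0.24 and a Sertoli effect of -0.05 ± 0.24. The slides gave -3.68, -2.97 and -3.22.

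Both calls depended on how the fit treated the mice. With mouse as a fixed replicate block, so that each mouse served as its own reference, limma gave Benjamini-Hochberg adjusted p-values of 0.203 for Tas1r1 and 0.0894 for Mpzl2, and no gene passed (1182 had an unadjusted p under 0.05). With mouse as a random block they were 0.0159 and 0.0135. Leaving out mouse 86, 72, 99 or 73 ended both calls, with adjusted p-values up to 0.547. Leaving out 120 ended that of Tas1r1 (limma with Benjamini-Hochberg adjustment, 0.0752) and leaving out 74 that of Mpzl2 (0.0928), and normexp background correction ended both (0.635), with the size of Tas1r1 at 2.97 and that of Mpzl2 at -2.82. The sizes moved little when a mouse was left out, from 4.41 to 5.54 for Tas1r1 and from -3.47 to -3.09 for Mpzl2.

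Tas1r1 lies on chromosome 4, as does Trp73, and the RefSeq order of GRCm38.p6 places 20 tested genes between them. None of the 20 passed (limma, smallest Benjamini-Hochberg adjusted p 0.826), and 1, Smim1, had an unadjusted p under 0.05. Their interactions ran from -0.78 to 0.50 and their germ effects from -0.55 to 0.74. Knockout and control mice did not overlap in 2 of the 20, Icmt and Smim1, beside 9.32% of all genes. Icmt and Smim1 are named after their values were seen.

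**Figure D1:**
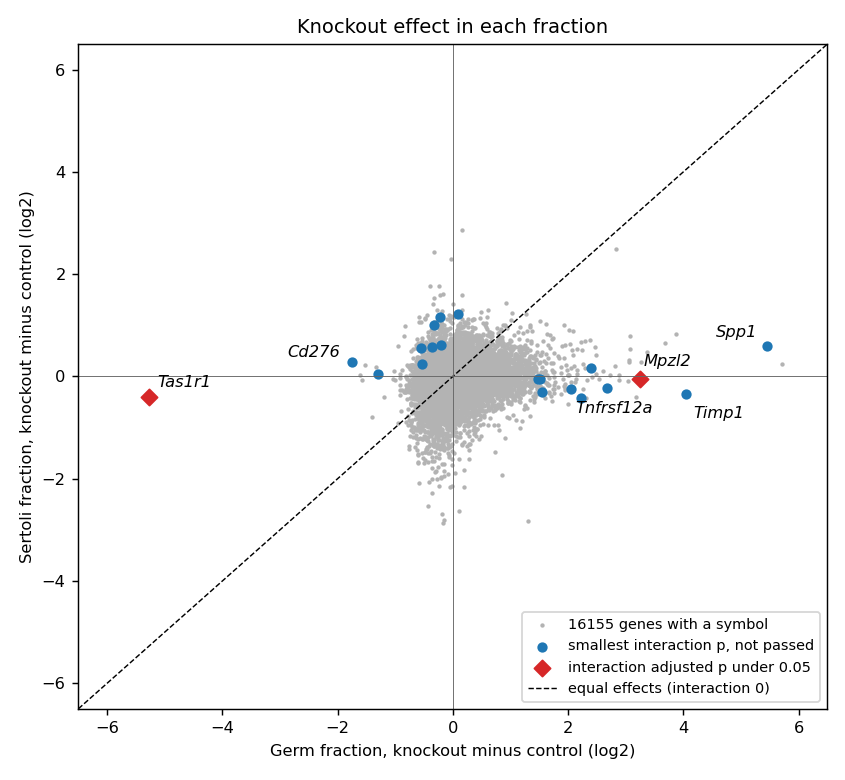
Knockout minus control in the germ fraction (x axis, log2) against the Sertoli fraction (y axis, log2) for 16155 genes with a symbol (grey), with equal effects on the dashed line. Red diamonds mark Tas1r1 and Mpzl2, which passed, at germ effects of -5.28 and 3.25 and Sertoli effects near 0; blue points mark the genes of next smallest interaction p in each direction, which did not pass.

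Across all genes the interaction was narrow and slightly negative, with 14577 genes (60.4%) below 0, a median of -0.09, an SD of 0.47 and 5th and 95th percentiles of -0.93 and 0.52. An unadjusted p under 0.05 was reached by 1112 genes, 4.61% of those tested. Of these, 995 were lower (4.12% of all genes) and 117 higher (0.485%), so 89.5% were lower. That share moved with the scaling and with the control mice. Without mouse 74 it was 56.3%, with 1043 genes lower and 808 higher, and without both controls titled het it was 50.5%, with 1151 lower and 1129 higher. It was 65.4% after quantile normalisation, 71.2% with array medians, 66.0% in the authors' deposited table and 94.0% with normexp background correction. The scaling moved the median of all genes from -0.50 with normexp to 0.09 with array medians, and gene groups below are counted against 0, with a median of -0.09 for all genes to set beside theirs. Knockout and control mice did not overlap in 2250 genes (9.32%), of which 1724 were lower (7.14%) and 526 higher (2.18%).

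Most of the low interactions came with a larger movement in the germ fraction. Among the 995, the germ effect was the larger in 854, or 85.8%, beside 53.1% of all genes. In controls 855 of them, 85.9%, were higher in the Sertoli fraction, beside 53.2% of all genes, and in 828 the gap was narrower in knockouts. These shares use the arrays that chose the 995 genes and are a description. The count of narrower gaps follows largely from choosing interactions below 0 among genes with mostly positive control gaps, and is no separate result. The germ effect passed in 57 genes (0.236% of genes; limma with Benjamini-Hochberg adjustment) and the Sertoli effect in 0 (smallest adjusted p 0.134; 731 genes had an unadjusted p under 0.05). In the 57 genes the median size of the germ effect was 2.10 and that of the Sertoli effect 0.22, beside 0.19 for the Sertoli effect of all genes. Only 2 of the 57, Tas1r1 and Mpzl2, passed in the interaction. For the other 55 a different effect in the fractions was not shown, though each had an unadjusted interaction p under 0.05, which rests in part on the same germ arrays.

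The spread of the gaps over genes, a measure of how far the fractions stood apart, was 3.68, 3.63 and 3.49 in knockout mice 120, 86 and 72 and 3.93, 3.82 and 3.40 in control mice 99, 73 and 74. The genotypes overlapped at this scaling, and control mouse 74 had the lowest value of all. The means were 3.60 ± 0.10 and 3.72 ± 0.28 (SD, n = 3), a difference of -0.12 (two-sided exact permutation test, p 0.5; the smallest p that 3 against 3 mice allow is 0.1). After quantile normalisation every knockout mouse lay below every control mouse, with 3.63, 3.57 and 3.55 against 3.76, 3.72 and 3.70, a difference of -0.15 (two-sided exact permutation test, p 0.1). The authors' deposited table gave a difference of -0.14 without overlap (two-sided exact permutation test, p 0.1), and normexp 0.11 (p 0.6).

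Behind Mpzl2 came 9 genes with a lower interaction, chosen by smallest p. None of the 9 passed, and in controls each had more signal in the Sertoli fraction. The 9 were chosen on these same arrays, so it is no further support that each of them had a negative interaction on each slide. Their germ effects, with that of Mpzl2, ran from 1.48 to 5.45 and their Sertoli effects from -0.43 to 0.59.

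Tnfrsf12a encodes Fn14, the receptor of the cytokine TWEAK. Its germ level was -2.56, -2.93 and -2.64 in controls 99, 73 and 74 and -0.68, 0.26 and 0.34 in knockouts 120, 86 and 72, with Sertoli levels of 4.71, 4.93 and 4.37 in controls and 4.50, 4.44 and 4.39 in knockouts. The germ arrays of the genotypes were apart, and the Sertoli arrays overlapped. The interaction was -2.91 ± 0.38 (limma with Benjamini-Hochberg adjustment, adjusted p 0.0954).

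Spp1 encodes osteopontin, a secreted integrin ligand. Its germ level was -6.88, -7.89 and -8.55 in controls and -2.69, -1.72 and -2.56 in knockouts, and its Sertoli level was 3.06, 3.60 and 2.44 in controls and 3.00, 3.84 and 4.03 in knockouts. Only 1 of 3 control germ arrays was well above background, so the size of the interaction, -4.86 ± 0.66, is uncertain (limma with Benjamini-Hochberg adjustment, adjusted p 0.0954). It was -2.42 under the alternative nearest to 0.

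Timp1 encodes an inhibitor of metalloproteinases. Its germ level was -3.89, -4.45 and -3.61 in controls and -0.96, 0.71 and 0.45 in knockouts, while its Sertoli level was 6.02, 6.19 and 7.04 in controls and 6.11, 5.71 and 6.39 in knockouts. The germ arrays did not overlap between genotypes and the Sertoli arrays did. The interaction was -4.40 ± 0.62 (limma with Benjamini-Hochberg adjustment, adjusted p 0.0954).

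Ccn1 encodes a matricellular protein that is induced at once by growth factors and by the TEAD cofactor YAP. Its germ level was -1.96, -2.08 and -2.06 in controls and -0.55, -0.71 and -0.32 in knockouts, and its Sertoli level was 4.81, 4.87 and 4.70 in controls and 4.71, 4.72 and 4.79 in knockouts. It had the tightest replicates of this group. The interaction was -1.56 ± 0.22 (limma with Benjamini-Hochberg adjustment, adjusted p 0.0954).

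**Figure D2:**
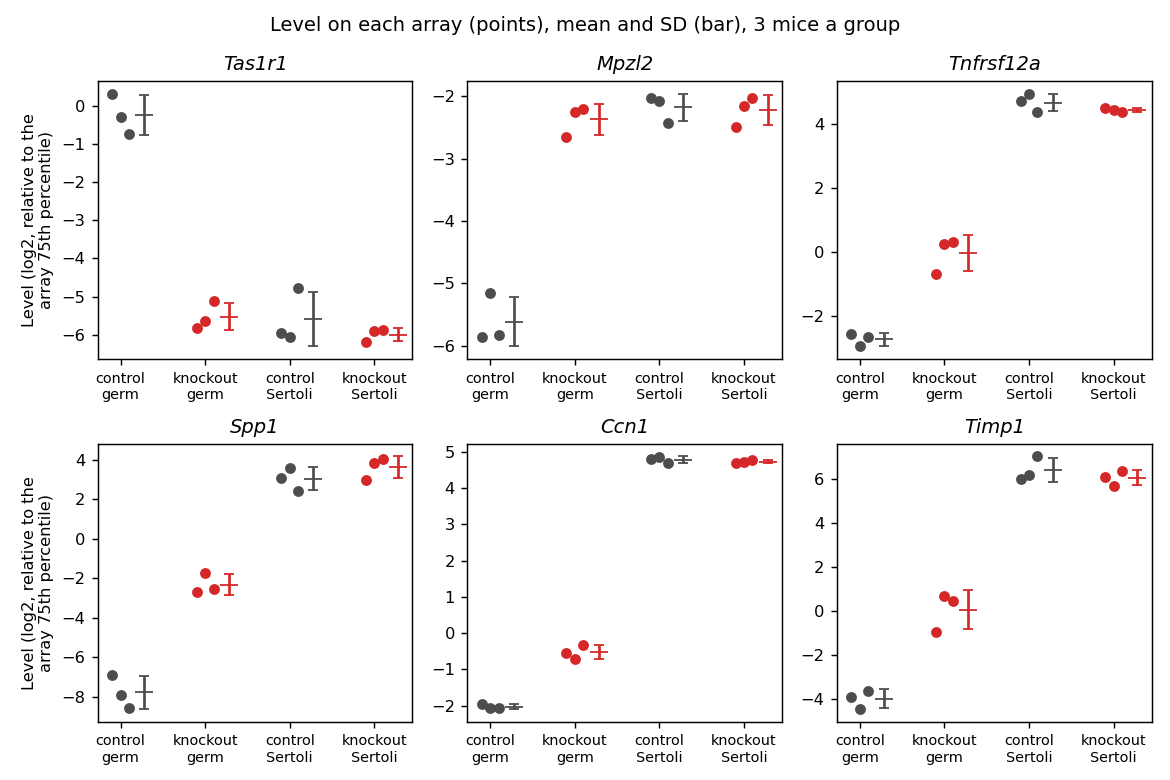
Level on each of the 12 arrays (y axis, log2 relative to the array's 75th percentile; the scale differs between panels) for 6 genes, with group mean and SD beside the points and knockouts in red. In Tas1r1 the knockout germ arrays sit at the Sertoli level near -6, in Mpzl2 near -2, and in the other 4 genes they lie between the control germ and the Sertoli arrays.

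The remaining genes of the group had interactions that did not pass, with adjusted p-values from 0.145 to 0.200 (limma with Benjamini-Hochberg adjustment). Pdpn, the mucin-like membrane protein podoplanin, had -2.30 ± 0.35, and its other probe gave -1.70. Fst, the activin-binding protein follistatin, had -2.65 ± 0.42, and the nucleotide receptor gene P2ry2 had -1.84 ± 0.30. Nupr1, a stress-induced nuclear protein, had -1.53 ± 0.25. Syk, a tyrosine kinase that signals from immune receptors, had -2.24 ± 0.37. In these 5 genes the gap between fractions stayed positive in knockouts but was smaller in every knockout mouse than in any control mouse. Such non-overlap on the lower side was found in 7.14% of all genes, and the same arrays chose these 5.

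**Figure D3:**
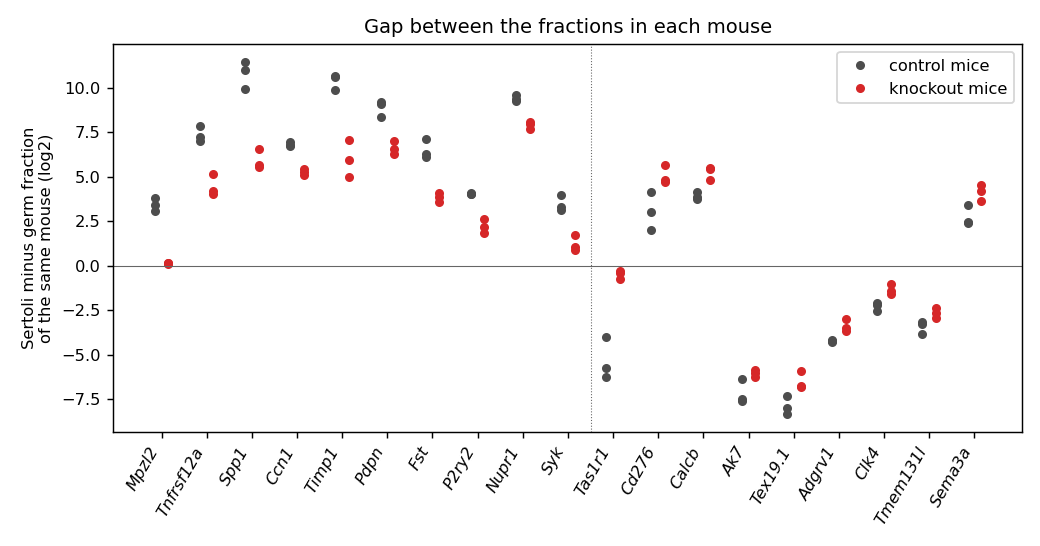
Sertoli minus germ gap of each mouse (y axis, log2; 0 means equal fractions) for the 10 genes of smallest p with a lower interaction (left of the dotted line) and 9 of the 10 with a higher one (right), controls in grey and knockouts in red. Knockout and control mice do not overlap in any of the 19 genes, beside 9.32% of all genes, but the same arrays chose them. The knockout gaps of Mpzl2, 0.11 to 0.17, and of Tas1r1, -0.76 to -0.27, lie nearest to 0.

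The promoters of Ccn1 and Timp1 are shown because, of the 8 promoters found for the 10 genes with a lower interaction, these held the letters GGAATG, the core bound by TEAD factors, on either strand. The capitals mark it. The letters begin 103 bases before the start of Ccn1 (as the reverse complement) and 247 bases before that of Timp1. RefSeq gives the windows as chr3:145649936-145650235 on the minus strand and chrX:20869916-20870215 on the plus strand of GRCm38.p6. The motif was chosen with the sequences in view.
Ccn1: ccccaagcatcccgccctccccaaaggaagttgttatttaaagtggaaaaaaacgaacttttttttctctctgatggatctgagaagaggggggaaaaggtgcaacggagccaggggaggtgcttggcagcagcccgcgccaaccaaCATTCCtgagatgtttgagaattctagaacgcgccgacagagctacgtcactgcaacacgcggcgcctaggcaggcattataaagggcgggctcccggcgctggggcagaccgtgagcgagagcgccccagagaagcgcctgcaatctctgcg
Timp1: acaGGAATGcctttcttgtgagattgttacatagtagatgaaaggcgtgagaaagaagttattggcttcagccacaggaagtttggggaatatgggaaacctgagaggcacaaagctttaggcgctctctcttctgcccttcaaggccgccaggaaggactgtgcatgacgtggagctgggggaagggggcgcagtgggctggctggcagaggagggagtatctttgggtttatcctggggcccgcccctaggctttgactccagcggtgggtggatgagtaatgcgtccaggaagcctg
GGAATG was present in 14.7% of all 32851 promoters of the same length, and a match is a description of the sequence, not a site. The AP-1 letters TGANTCA were in 7.81% of all promoters and, of the 16 promoters found for the 20 genes in either direction, in that of Tex19.1. The p53 family half-site was in 8.36% of all promoters and in 0 of these 16, which says only that its letters are not in these windows.

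Above 0, Tas1r1 stood alone. The 9 next genes had interactions from 0.79 to 2.03 that did not pass, with adjusted p-values from 0.559 to 0.841 (limma with Benjamini-Hochberg adjustment). Cd276, the immune checkpoint protein B7-H3, had 2.03 ± 0.52 with a germ effect of -1.75 ± 0.37, and 2 of its 3 knockout germ arrays were well above background. No germ array was well above background for Calcb and Sema3a, a neuropeptide and an axon guidance protein, so their values of 1.34 and 1.34 have no reliable size. A further 5 had less signal in the Sertoli fraction of controls. They include Ak7, an adenylate kinase of cilia and flagella (1.12 ± 0.35), and Tex19.1, a germ cell factor that restrains transposons (1.39 ± 0.45). They also include Adgrv1, an adhesion receptor (0.82 ± 0.26), Clk4, a kinase of splicing factors (0.94 ± 0.31), and Tmem131l (0.79 ± 0.26). With normexp the values of Calcb, Ak7, Tex19.1, Adgrv1 and Sema3a were below 0, down to -1.22 for Ak7.

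Restricting to genes well above background on all 12 arrays named further genes that did not pass. On the low side they were Adam23, a disintegrin family protein (-2.86 ± 0.48), Rab7b, a GTPase of late endosomes (-2.41 ± 0.42), and Plekhh3 (-2.18 ± 0.42). Ltbp1, which binds latent TGF-beta, had -1.78 ± 0.32, and Tspo, a mitochondrial outer membrane protein abundant in steroid-making cells, had -1.47 ± 0.28. On the high side the carbonic anhydrase Car2 had 1.82 ± 0.63, Zfand6 1.64 ± 0.57, Ginm1 1.16 ± 0.40, Sectm1a 1.13 ± 0.38 and Calr3, a testis chaperone, 0.96 ± 0.34. The other probe of Calr3 gave -0.16.

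Effects of opposite sign, each of at least 0.5 on the log2 scale, were found in 128 genes, 0.53% of those tested. In 92 of them (0.381%) the knockouts were higher in the germ and lower in the Sertoli fraction, and in 36 (0.149%) the reverse. None of the 128 passed in the interaction. An unadjusted p under 0.05 was reached by 55 of them, beside 4.61% of all genes, but choosing opposite effects already selects large interactions. The 8 with the smallest p, all of the first kind, had adjusted p-values from 0.327 to 0.520 (limma with Benjamini-Hochberg adjustment). Ltbp2, a microfibril protein, had a germ effect of 1.02 ± 0.22 and a Sertoli effect of -0.54 ± 0.22. The chemokine gene Cxcl12 had a germ effect of 0.73 ± 0.23 and a Sertoli effect of -0.65 ± 0.23, and Sct, the hormone secretin, 0.71 ± 0.20 and -0.58 ± 0.20. S100a6, a calcium-binding protein, had 1.25 ± 0.30 and -0.59 ± 0.30. Aif1l, an actin-binding protein, had 0.96 ± 0.26 and -0.52 ± 0.26. No control germ array was well above background for Trim72 and only 1 of the 6 Sertoli arrays was for Defa3, so the sizes of their interactions, -2.54 and -1.84, are uncertain.

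Gene groups are described by counts and medians, and in none but the taste list did a member pass. The lists were written with earlier results of these data known, so their counts are a description and no independent support. The cytokine and interferon genes had the lowest median. All 18 measured members lay below 0, 10 with an unadjusted p under 0.05 (4.12% of all genes), and 13 had knockout mice wholly below control mice (7.14% of all genes). Their median interaction was -1.26, composed of a median germ effect of 1.02 and a median Sertoli effect of -0.26. The monocyte-attracting chemokines Ccl7 and Ccl2 had -3.59 ± 0.71 and -2.52 ± 0.60, and Cxcl1, which attracts neutrophils, had -2.07 ± 0.40. For Ccl7 no control germ array was well above background.

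Macrophage and phagocyte genes likewise had a median germ effect above the median Sertoli effect, but their control gaps mostly differed in sign. In controls 13 of 17 macrophage and leukocyte markers were lower in the Sertoli fraction, and 6 of the 17 gaps narrowed in knockouts. Of 19 phagocyte lipid genes 17 were higher in the Sertoli fraction of controls, and 17 gaps narrowed. With an interaction below 0, a control gap above 0 tends to narrow and one below 0 widens. The counts of narrowed gaps thus largely restate the signs of the control gaps and are no separate result. Of 17 macrophage and leukocyte markers 15 lay below 0, with a median interaction of -1.08, a germ median of 1.06 and a Sertoli median of 0.02. All 19 phagocyte lipid genes lay below 0, with a median of -0.97. Of them 12 had an unadjusted p under 0.05 (4.12% of all genes) and 13 did not overlap (7.14% of all genes). Among the 19 are Spp1 and Syk, which were named above for their small p on these same arrays. Of the 19, 3 are also members of another list. Trem2, a lipid-sensing receptor of macrophages, had gaps of -0.17, -0.74 and -0.78 in knockouts 120, 86 and 72 and of 1.86, 2.50 and 1.80 in controls 99, 73 and 74. The sign of its gap thus differed between the genotypes, and its interaction was -2.62 ± 0.51. Lyz2, the lysozyme of macrophages, had -2.71 ± 0.89, with only 1 control germ array well above background, and Tyrobp, the adaptor of Trem2, had -1.88 ± 0.68. The summed level of the 17 macrophage markers (log2 of the summed signal) ran from 3.75 to 4.08 on the knockout germ arrays and from 3.36 to 3.65 on the control germ arrays. On the Sertoli arrays it ran from 3.46 to 3.78 in knockouts and from 3.35 to 4.44 in controls. The part of such cells in the interactions of the cytokine, phagocyte, peptidase and Spp1 values was not tested.

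Among matrix and lysosomal peptidases 16 of 18 lay below 0, with a median of -0.92, and 10 had non-overlapping mice (7.14% of all genes). Mmp23, a membrane metalloproteinase, had -2.58 ± 0.50, Ctsk, the collagen-cleaving cathepsin K, -1.45 ± 0.29, and Ctsd, a lysosomal aspartic peptidase, -0.97 ± 0.23. Peptidase inhibitors were more mixed, 16 of 23 below 0 with a median of -0.55. Beside Timp1 they held Wfdc18, a secreted whey acidic protein family member, at -2.74 ± 0.72, and Serping1, the complement C1 inhibitor, at -1.25 ± 0.43. Basement membrane genes lay below 0 in 19 of 23, with a median of -0.43, and Col4a1, the common collagen IV chain, had -0.96 ± 0.28. Immediate early genes lay below 0 in 19 of 21, with a median of -0.86, a germ median of 0.75 and a Sertoli median of -0.06. After Ccn1 their leading members were Egr2, a zinc finger factor (-1.60 ± 0.44), and Ccn2, a matricellular relative of Ccn1 (-0.90 ± 0.28).

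Genes of cell contact, the subject of the study's title, had medians nearer to 0 than the cytokine and phagocyte lists. Of 22 genes of germ to Sertoli junctions and the ectoplasmic specialization, 18 were below 0, 4 had mice that did not overlap on that side (beside 7.14% of all genes) and the median was -0.35. Zyx, an actin-linked focal adhesion protein, had -0.99 ± 0.30 and Actn4, an actin cross-linker, -0.62 ± 0.26. Cdh1, the epithelial cadherin, had -1.10 ± 0.41 but was not well above background on any Sertoli array. The 18 integrin and focal adhesion genes centred on -0.49. On the lower side 6 of these genes did not overlap (7.14% of all genes) and 4 had an unadjusted p under 0.05 (4.12%). They held Itga9, an integrin subunit whose ligands include osteopontin, at -2.08 ± 0.69 and Itgb3 at -1.17 ± 0.44. The 13 tight junction genes had a median of -0.08, which is 0.01 above that of all genes, and none had non-overlapping mice.

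Somatic markers divided by cell type. All 10 peritubular myoid markers lay below 0, 7 without overlap (7.14% of all genes), with a median of -1.01. Here both fractions contributed, since the median germ effect was 0.61 and the median Sertoli effect -0.39. Smtn, Cnn1 and Tpm2, genes of the smooth muscle contractile apparatus, had -1.05 ± 0.23, -0.96 ± 0.27 and -0.88 ± 0.25. The median gap of the list was 4.15, 4.52 and 4.17 in knockout mice 120, 86 and 72 and 5.78, 5.16 and 5.48 in controls 99, 73 and 74, and the genotypes did not overlap. The summed level was 5.23 to 5.48 on the knockout germ arrays and 4.93 to 5.21 on the control ones. Under normexp the list's median relative to all genes was -0.26, against -0.92 as reported.

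All 10 Leydig markers lay below 0 with a median of -0.81, although the median effect was above 0 in both fractions, at 1.24 in germ and 0.38 in Sertoli. Star, which carries cholesterol into mitochondria, had -1.50 ± 0.47, and Cyp11a1, the first enzyme of steroid synthesis, -1.11 ± 0.48. Sertoli markers had a median of -0.31 and 1 of 21 members, Gjb2, without overlap on the lower side (7.14% of all genes). Fibroblast markers had a median of -0.50 with 7 of 10 below 0. On the higher side 1 member did not overlap (2.18% of all genes). On the lower side 1 did not (7.14%), Pdgfra, a receptor for platelet-derived growth factor, at -1.13 ± 0.27. Endothelial markers lay on the other side, with 8 of 10 above 0, a median of 0.12 and no non-overlapping member.

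Germ cell markers were mostly near the background, apart from the last stage. Spermatogonia, spermatocyte and round spermatid markers had medians of -0.15, 0.09 and -0.07, and relative to all genes the last was 0.02. Elongating spermatid markers had a median of -0.71, and here the Sertoli fraction carried the difference, with a median Sertoli effect of -1.08 and a median germ effect of -0.34. The transition protein Tnp2 and the protamine Prm1, which pack sperm DNA, had -1.25 ± 0.47 and -1.42 ± 0.63. The gaps of Tnp2 were -10.15, -10.21 and -10.40 in knockouts 120, 86 and 72 and -9.49, -9.23 and -8.28 in controls 99, 73 and 74. Mouse 74, whose Sertoli array had the lowest 75th percentile, was the most shifted of the controls. The list's median was -0.12, -0.33 and -1.84 on slides 1, 2 and 3. Relative to all genes it was -0.62, -0.31 without mouse 74, and -0.19 over the genes well above background on all 12 arrays. The part of that array in this value was not tested.

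**Figure D4:**
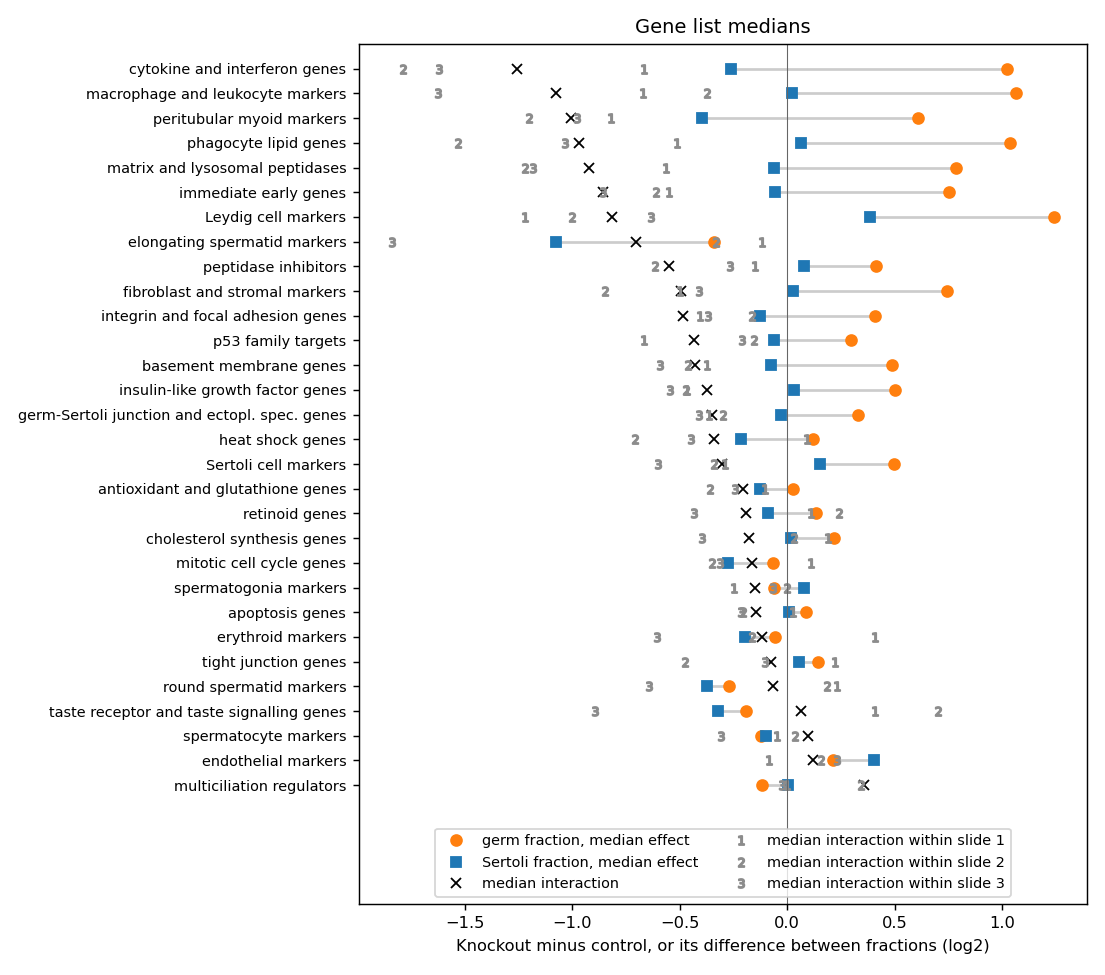
Median knockout minus control of each gene list in the germ fraction (orange circles) and the Sertoli fraction (blue squares), the median interaction over all slides (crosses) and within slides 1, 2 and 3 (grey digits), all in log2 on the x axis. Cytokine, macrophage, phagocyte and Leydig lists have germ medians from 1.02 to 1.24 and Sertoli medians from -0.26 to 0.38; the elongating spermatid list has its larger effect in the Sertoli fraction, and on slide 3.

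Other programmes had medians nearer to 0 than the cytokine and phagocyte lists. Targets of the p53 family had 17 of 22 members below 0 and a median of -0.43. On the lower side 5 did not overlap (7.14% of all genes) and 5 had an unadjusted p under 0.05 (4.12%). The targets included Fas, a death receptor (-2.22 ± 0.65), Phlda3, an inhibitor of AKT signalling (-1.45 ± 0.42), and the cell cycle inhibitor Cdkn1a (-0.79 ± 0.28). The slides gave -0.67, -0.16 and -0.21. Multiciliation regulators had the highest median, 0.36, with 8 of 10 above 0, none without overlap and slide values of 0.00, 0.34 and -0.02. Foxj1, a master factor of motile cilia, had 0.37 ± 0.25. Heat shock genes had a median of -0.34, with Hspb8, a small heat shock protein, at -2.89 ± 0.61. Insulin-like growth factor genes had a median of -0.37, with Igfbp3, a binding protein, at -2.27 ± 0.45. Medians were -0.21 for antioxidant, -0.19 for retinoid, -0.18 for cholesterol synthesis, -0.17 for mitotic cell cycle, -0.15 for apoptosis and -0.12 for erythroid genes. Of the 7 taste genes, 4 were above 0 and Tas1r1 alone passed, with a list median of 0.07.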

How the data were processed

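RNA from 2 testis fractions of 6 mice was measured on 12 one-colour Agilent arrays. Per the file headers, Agilent Feature Extraction 10.7.3.1 read the images, the array grid names build mm9, and the deposited intensity used here, the processed signal, was background-subtracted and detrended by the scanner software. A log2 value table was deposited by the authors as well (column medians 8.29; in each array's own order, Spearman's rho 0.9999 or above), whose scaling is not stated. Per the submitters' processing notes limma was used.

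Here 1377 control spots and outlier spots were left out, spots of a probe averaged, and each array's 75th percentile subtracted after log2. Names came from RefSeq GRCm38.p6 for 26055 probes, and the other 13374 kept the file's name. limma 3.58.1 (R 4.3.3) was fitted on 4 group means, with Benjamini-Hochberg adjustment over 24131 genes and a threshold of 0.05. The fit was tested on simulated data. Of these, 133 genes lacked a value on some array and were fitted on the rest. Errors beside an interaction are SE of the fit, and 3 mice per group limit the precision.

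Genes, all with a symbol, were named by rule: those that passed and then the smallest p up to 10 per direction, 8 with opposite effects, the p53 family, 3 per list, and 5 per direction well above background on all arrays. Of the genes so chosen, 2 are not reported here. Members and lists were chosen with earlier results of these data known. Both fractions come from the same animal, so mouse numbers pair the samples; the correlation of a mouse's deviations between fractions was 0.254, 0.276 and 0.189 in knockouts 120, 86 and 72 and -0.180, -0.132 and 0.455 in controls 99, 73 and 74. Promoters, 250 bases before to 50 after the start, came from RefSeq GRCm38.p6 and matched 16 of 20 genes. The normexp alternative used the median spot intensity in place of the planned mean spot signal, which the array data read here did not hold.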

Additional observations from a re-analysis of the deposited data

Results flagged for a closer look

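The test of the difference between the Sertoli and germ fractions was passed by 2 genes, in a fit that did not pair the fractions of a mouse. With mouse as a fixed replicate block neither passed (limma with Benjamini-Hochberg adjustment, adjusted p 0.203 for Tas1r1 and 0.0894 for Mpzl2). Tas1r1 had an interaction of 4.87 (limma with Benjamini-Hochberg adjustment, adjusted p 0.0221). Its gap was nearer to 0 in 3 of 3 knockout mice than in any control mouse. Mpzl2 had an interaction of -3.29 (limma with Benjamini-Hochberg adjustment, adjusted p 0.0221), and its gap was likewise nearer to 0 in 3 of 3 knockout mice. Knockout and control mice did not overlap in 9.32% of all genes. The gaps come from the arrays of the test, so they are a description and no further support.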

How the results depend on the processing

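Named genes kept their side of the threshold in 2495 of 2538 gene alternatives, most of them of genes that did not pass. The direction of a call never turned. Changes of sign in genes that did not pass are not in that count. Trp53, for example, kept its sign in 14 of 19 alternatives. The higher call of 1 gene, Tas1r1, became 0 with normexp, with mouse as a fixed replicate block, with slide as a block, with only the 8-month mice and without both control mice titled het, which leaves 1 control assumed to vary like the other groups. The 1 lower call, Mpzl2, became 0 with normexp, quantile normalisation, array medians, the authors' deposited table, mouse as a fixed replicate block, only the 8-month mice and without both mice titled het. Lower calls numbered 3 over genes well above background on all 12 arrays, 3 with mouse as a random replicate block, 2 with slide as a block, 6 with trended robust moderation and 10 with array weights. Leaving out 1 mouse gave 0 to 1 higher and 0 to 7 lower calls. Adjusted p-values (limma with Benjamini-Hochberg adjustment) ran from 0.000389 to 0.635 for Tas1r1 and from 0.00732 to 0.635 for Mpzl2. The separation of the fractions turned from -0.12 to 0.11 with normexp (two-sided exact permutation test, p 0.6) and was -0.15 with quantile normalisation and -0.14 in the authors' deposited table, both without overlap of the genotypes (p 0.1, the smallest possible). Of the 30 list medians relative to all genes, 9 were below 0 in all 20 alternatives: cytokine, macrophage, peritubular myoid, phagocyte lipid, peptidase, immediate early, Leydig, elongating spermatid and fibroblast genes. Median list values moved beyond their spread in 82 of 600 alternatives. The cause of these changes was not tested. Genes not well above background have uncertain sizes.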
